A study of Mus musculus with 9 samples.

Results

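The miR-193, miR-365 and miR-128 arms described here are 7 mature miRNAs chosen by name, mmu-miR-193a-3p, mmu-miR-193a-5p, mmu-miR-193b-3p, mmu-miR-365-3p, mmu-miR-128-3p, mmu-miR-128-1-5p and mmu-miR-128-2-5p. The deposited tables list 1915 mature miRNAs in all, of which these are 7. Small RNA libraries were made from the tibialis anterior (TA) muscle, a hindlimb muscle made mostly of fast glycolytic fibres, of 4 control mice and 5 mice bearing Lewis lung carcinoma (LLC), a transplantable mouse lung tumour line that causes cachexia, the wasting of muscle and fat. LLC mice received 750000 LLC cells under the skin of each flank and were studied 22 days later, and control mice received the buffer alone, PBS. The day is recorded as 22 for the LLC mice and as 0 for the controls. The authors state, however, that control mice too were studied 22 days after the LLC cells were given. No genetic change is stated for any mouse. The sample labels give the strain as C57BL/6J and the age as 10 weeks, whereas the text on the design gives C57BL/10 and 8 weeks and states that the mice were male. Mice are written C1 to C4 for controls and L1, L2, L3, L5 and L6 for LLC, as their labels number them, and a library L4 was not analysed here. Each library came from the muscle of a separate mouse.

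Total miRNA counts were 4992339 to 6548379 in the controls and 6216566 to 7833161 in the LLC mice. Levels are given as CPM, counts scaled to the same library total, with library sizes adjusted by the trimmed mean of M-values (TMM), and 3 counts corresponded to 0.344 to 0.593 CPM. On the first principal component, which held 46.3% of the variance, L1 (4.77) and L5 (7.78) stood apart from the other LLC mice, which lay between -1.66 and 0.264, and the controls lay between -4.32 and -1.10. The 5 most abundant miRNAs took 68.5% of the counts in L5, against 53.9% to 61.0% in the other libraries. Values without these 2 mice are therefore given beside several of the results. L1 and L5 were chosen from these same data and lay farthest from the controls on this component. Leaving them out keeps the LLC mice nearest to the controls, so a smaller difference without them can follow from that choice alone.

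MiRNAs are short RNAs that guide the Argonaute protein to matching sites in mRNAs, mostly through bases 2 to 8 of the miRNA, the seed. Each hairpin precursor can give a 5p and a 3p arm, and usually one of them, the guide, accumulates while the other is degraded. MiR-193b and miR-365 are encoded together and are known from brown adipocyte differentiation and from the choice between adipocyte and muscle fate. MiR-128 is best known as a neuronal miRNA and has also been tied to insulin signalling and myoblast differentiation.

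The mature sequences are printed with the seed in capitals, because the seeds sort the 7 arms into families. They were read from RefSeq (GRCm38.p6), where all 7 were found by name.
miR-193a-3p: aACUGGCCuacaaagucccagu
miR-193b-3p: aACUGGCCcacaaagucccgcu
miR-365-3p: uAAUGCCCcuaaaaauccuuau
miR-128-3p: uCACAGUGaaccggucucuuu
miR-193a-5p: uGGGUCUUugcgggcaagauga
miR-128-1-5p: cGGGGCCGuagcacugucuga
miR-128-2-5p: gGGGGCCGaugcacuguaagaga

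MiR-193a-3p and miR-193b-3p shared a seed and differed at 3 of 22 bases, U9C, A20G and G21C, with positions counted from 1 at the 5′ end and the base of miR-193a-3p written first. All 3 lie beyond the 8 bases in which the mapping allowed no mismatch, so how reads were divided between both miRNAs cannot be told from the counts. MiR-128-1-5p and miR-128-2-5p also shared a seed. No other mature miRNA among the 1623 of 1915 in the tables that were matched to RefSeq carried the seed of any of the 7 arms.

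The 4 hairpins of miR-193 and miR-365 lie in pairs. On the GRCm38 assembly, Mir193a is at chr11:79711969-79712034 and Mir365-2 at chr11:79726400-79726511, both on the plus strand, 14365 bp apart, and neither overlaps another annotated gene. Mir193b is at chr16:13449523-13449601 and Mir365-1 at chr16:13453840-13453926, both on the plus strand and 4238 bp apart, within introns of Gm15738, an antisense transcript annotated on the opposite strand. Mir365-1 and Mir365-2 give the same miR-365-3p, so its count is the sum of both loci. MiR-128-3p likewise comes from 2 loci, Mir128-1 at chr1:128202361-128202430 (plus strand), in an intron of R3hdm1, and Mir128-2 at chr9:112118636-112118711 (minus strand), in an intron of Arpp21, each on the strand of its host gene. The 2 hairpins are printed with the annotated arms in capitals, to show that the 3p arms are identical and the 5p arms are not.
Mir128-1: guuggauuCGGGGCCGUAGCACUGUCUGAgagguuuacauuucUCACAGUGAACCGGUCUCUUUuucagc
Mir128-2: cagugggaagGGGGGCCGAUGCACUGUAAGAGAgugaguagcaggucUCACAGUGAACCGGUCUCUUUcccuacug

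The 7 arms spanned a wide range of levels. MiR-128-3p had the highest mean level over the 9 mice, 264 CPM, followed by miR-193a-3p at 161 CPM, miR-365-3p at 130 CPM and miR-193b-3p at 69.9 CPM. These 4 guide arms lay above the median of the 304 expressed miRNAs, 34.2 CPM, and miR-128-3p and miR-193a-3p ranked 75th and 93rd among them. MiR-128-3p exceeded miR-193a-3p in 9 of 9 mice. MiR-193a-3p and miR-365-3p could not be placed in order beyond their spread, since miR-193a-3p was the higher in only 5 of 9 mice. MiR-365-3p was above miR-193b-3p in 9 of 9 mice, and their ranges did not overlap.

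The passenger arms were scarce. MiR-193a-5p averaged 4.57 CPM and miR-128-1-5p 3.97 CPM. MiR-193a-5p was the higher of these arms in 5 of 9 mice, which were the 5 LLC mice, an order singled out after its values were seen. MiR-128-2-5p had 0 to 2 counts per library and 5 in all, so no fold change is given for it.

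A miRNA counted as expressed when any library had over 32 counts for it, which held for 304. Of these, none passed an adjusted p of 0.05 with a fold change of 1.5 in the LLC mice (0%; edgeR quasi-likelihood F test with Benjamini-Hochberg adjustment, smallest adjusted p 0.0812), and none of the 5 arms tested passed. DESeq2 on the same miRNAs called 8, none of them one of the 5 arms. Without adjustment, 22 miRNAs passed p and fold change (7.24%), 11 higher and 11 lower (3.62% each), or 4 higher and 22 lower with library totals in place of TMM. None of the 5 arms was among the 22. On the unadjusted p alone 50 miRNAs passed (16.4%), among them 1 of the 5 arms, miR-193a-5p. That arm reached the count minimum through LLC libraries only, so its higher LLC values in part decided that it was counted here. Control and LLC mice overlapped for all 5 arms, whereas they did not overlap for 5 miRNAs higher in LLC mice (1.64%) and 13 lower (4.28%). MiR-128-1-5p, whose highest count was 32, fell just outside the count minimum, and miR-128-2-5p fell far below it. The median log2 fold change of the 5 arms tested was -0.14, against -0.02 over all 304 miRNAs, with 2 arms higher and 3 lower against 141 miRNAs higher (46.4%) and 163 lower (53.6%). With library totals alone the median over all 304 moved to -0.17 and that of the 5 arms to -0.28. Without L1 and L5 the medians were 0.016 and -0.0034, without L1 alone -0.027 and -0.017, and without C4 alone -0.014 and -0.022, so the lower median of the arms depended on which mice were kept.

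**Figure D1:**
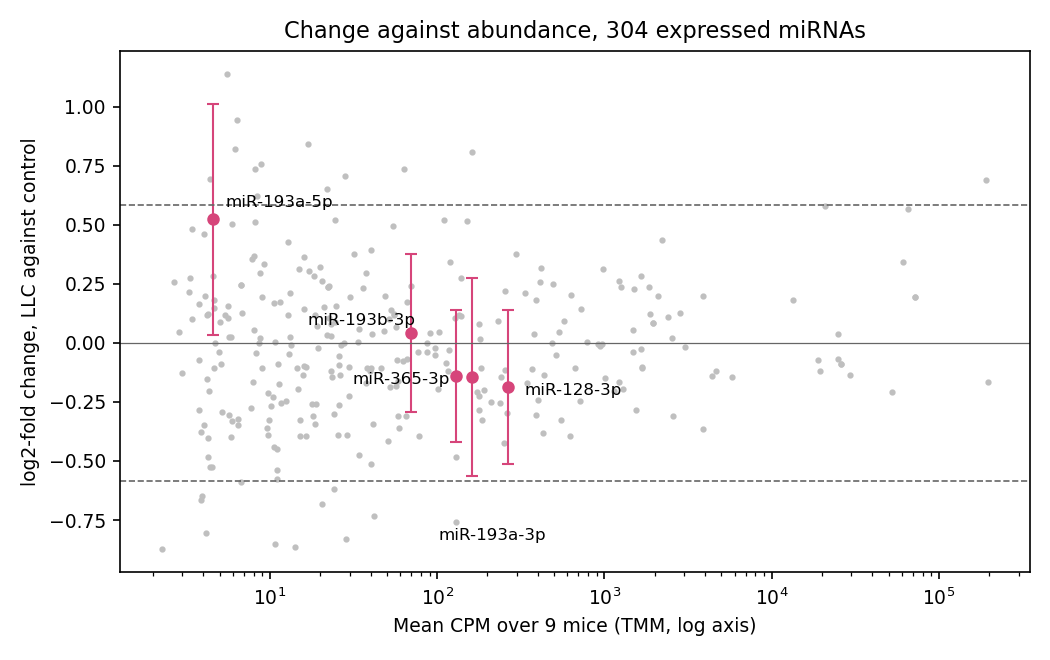
Log2 fold change of LLC against control mice (y axis) against the mean CPM over 9 mice (x axis, log scale) for the 304 expressed miRNAs (grey points). The 5 arms tested are in colour with 95% confidence intervals, dashed lines mark a 1.5-fold change, and of the 5 intervals only that of miR-193a-5p lies wholly above 0.

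MiR-193a-3p, the guide arm of Mir193a, was at 149, 130, 194 and 209 CPM in C1 to C4 and at 96.9, 204, 156, 184 and 131 CPM in L1, L2, L3, L5 and L6. The groups overlapped in all LLC mice but L1, which was the lowest of the 9 mice. The means were 171 ± 37.1 CPM (SD, n = 4) and 154 ± 42.3 CPM (SD, n = 5). The log2 fold change was -0.15 (SE 0.197, 95% confidence interval -0.56 to 0.27, adjusted p = 0.680, edgeR), smaller than the spread between mice. Without L1 and L5 it was -0.030, and without L1 alone -0.017.

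MiR-193b-3p, which shares the seed of miR-193a-3p, was at 75.6, 66.9, 64.3 and 68.4 CPM in the controls. In L1, L2, L3, L5 and L6 it was at 48.3, 83.6, 68.3, 85.7 and 68.4 CPM. The controls lay close together (coefficient of variation 7.03%, against a median of 13.8% over all expressed miRNAs), and LLC mice lay on both sides of them, with L1 below all controls and L2 and L5 above them. The means were 68.8 ± 4.83 and 70.8 ± 15.0 CPM. The log2 fold change was 0.04 (SE 0.157, interval -0.29 to 0.38, adjusted p = 0.882, edgeR), and its sign changed to -0.11 with library totals in place of TMM. It was 0.13 without L1 and L5.

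MiR-365-3p, the joint product of Mir365-1 and Mir365-2, was at 165, 131, 120 and 134 CPM in the controls and at 101, 141, 129, 121 and 132 CPM in L1, L2, L3, L5 and L6. C1 was the highest and L1 the lowest of the 9 mice, and the other 7 lay in a narrow band. The means were 137 ± 19.4 and 125 ± 14.9 CPM, a log2 fold change of -0.14 (SE 0.132, interval -0.42 to 0.14, adjusted p = 0.565, edgeR). The difference did not exceed the spread between mice, and without L1 and L5 the log2 fold change was -0.0034.

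MiR-128-3p, the joint product of Mir128-1 and Mir128-2, was at 356, 306, 214 and 256 CPM in the controls and at 229, 246, 263, 202 and 303 CPM in L1, L2, L3, L5 and L6. The highest levels were in C1, C2 and L6 and the lowest in L5 and C3, so the groups overlapped. The means were 283 ± 61.4 and 249 ± 37.8 CPM, a log2 fold change of -0.19 (SE 0.153, interval -0.51 to 0.14, adjusted p = 0.505, edgeR). Without L1 and L5 it was -0.030, without C1 -0.056 and without C3 -0.30. With TMM, all 9 mice and no replicate block, the 95% intervals of the 4 guide arms lay within a 1.5-fold change in either direction (0.58 on the log2 scale). With the replicate number as a block all 4 reached further, from -0.59 for miR-193b-3p to -0.70 for miR-193a-3p. With library totals they reached -0.79 for miR-128-3p and -0.71 for both miR-193a-3p and miR-365-3p, and leaving out 1 mouse took that of miR-193a-3p to -0.69 (without L2) and that of miR-128-3p to -0.63 (without C3).

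MiR-193a-5p, the passenger arm of Mir193a, was covered by 17 to 28 counts in the controls and 30 to 44 counts in the LLC mice. It passed the count minimum through LLC libraries only, 3 of them having over 32 counts and no control, so its higher LLC values are in part what let it be tested. Its levels were 3.39, 3.71, 3.01 and 4.54 CPM in C1 to C4 and 5.74, 5.38, 3.99, 6.32 and 5.04 CPM in L1, L2, L3, L5 and L6. All LLC mice but L3 were above all controls, and C4 was the only control above L3. The means were 3.66 ± 0.654 and 5.29 ± 0.870 CPM. The log2 fold change was 0.52 (SE 0.230, interval 0.04 to 1.01), with an adjusted p of 0.284 by edgeR, and with a filter of 10 counts in every library it was 0.54 with an adjusted p of 0.264. Both miss the threshold. Its unadjusted edgeR p no longer passed 0.05 with library totals (log2 fold change 0.36), with totals without the 5 most abundant miRNAs (0.50) and with the replicate block (0.57). It also no longer passed without any 1 of C1, C2, C3, L1, L2 and L5, with log2 fold changes from 0.45 (without C3) to 0.55 (without C2). Without L1 and L5 together it did not pass either, and the log2 fold change was 0.43.

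Taken as a single value, miR-193a-5p differed by 0.50 in mean log2 CPM (exact permutation test, two-sided, p = 0.0317, where the smallest p of 126 splits is 0.00794). This p is not adjusted for the number of miRNAs measured. In the same exact test it passed 0.05 without C4 (0.60) or without L3 (0.59), and missed it without any other single mouse (p 0.0536 to 0.0714) and without L1 and L5 together (0.37, p = 0.114). The same exact test gave p = 0.516 for miR-193a-3p, 0.952 for miR-193b-3p, 0.349 for miR-365-3p and 0.357 for miR-128-3p.

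MiR-128-1-5p, the passenger arm of Mir128-1, had 18 to 31 counts in the controls and 18 to 32 in the LLC mice. It averaged 4.25 ± 1.18 and 3.74 ± 0.415 CPM, and C4 was its highest mouse, at 5.93 CPM. The difference in mean log2 CPM was -0.15 (exact permutation test, p = 0.492), smaller than the spread between mice. Its sign changed without C4, to 0.017. The other arms of the miR-193b and miR-365 hairpins were also scarce, with 8 to 17 counts per library for miR-193b-5p, 1 to 7 for miR-365-1-5p and 3 to 8 for miR-365-2-5p.

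**Figure D2:**
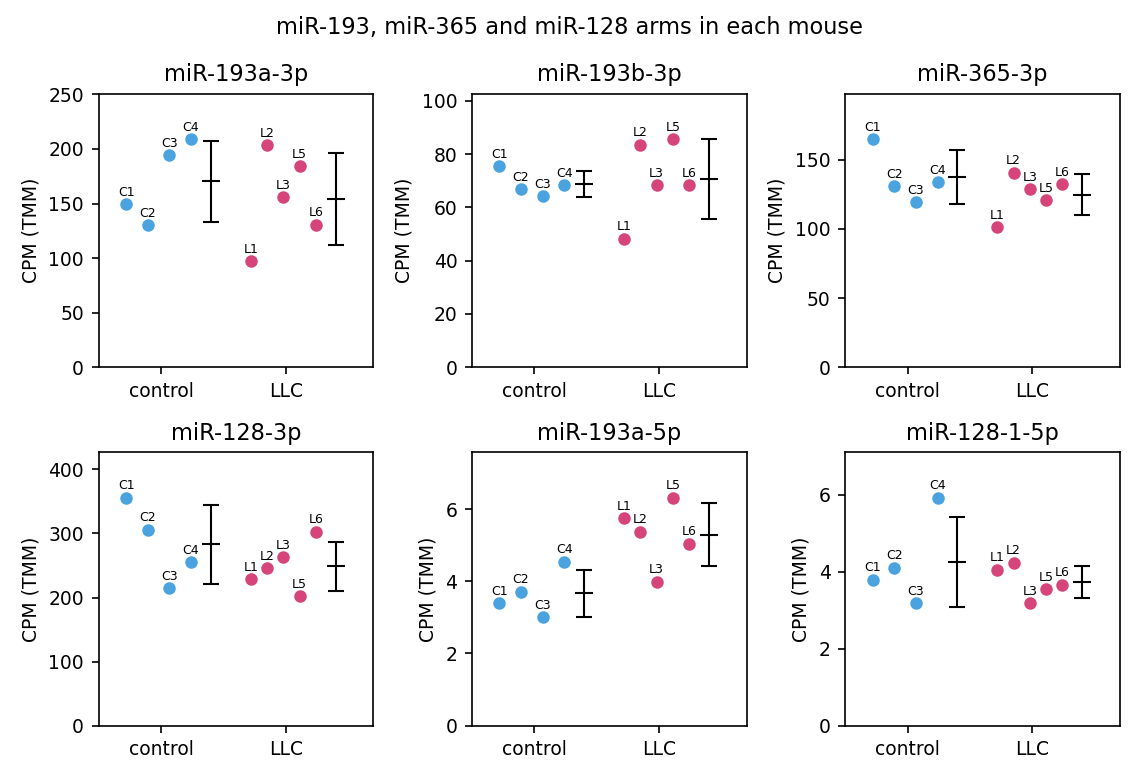
CPM (y axis, TMM library sizes) of 6 of the 7 arms in each mouse. Each point is a mouse and the bar beside it is the mean ± SD of the group. LLC and control mice overlap for every arm drawn, and for miR-193a-5p all LLC mice except L3 (3.99 CPM) lie above the highest control (4.54 CPM).

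Ratios of counts within a library do not depend on the library size. Of 6 ratios compared between the groups, none passed after adjustment over the 6. The ratio of miR-193b-3p to miR-193a-3p was 42.0 ± 10.5% in the controls (n = 4) and 46.7 ± 4.55% in the LLC mice (n = 5), a log2 difference of 0.18 (exact permutation test, p = 0.341, adjusted p = 0.683). The controls split into C1 and C2 (50.6% and 51.4%) and C3 and C4 (33.1% and 32.7%), and all 5 LLC mice lay above the lower pair. The difference was 0.29 without C2 and 0.075 without C4. The ratio of miR-365-3p to miR-193a-3p had the same split, with 111% and 101% in C1 and C2 and 61.6% and 64.1% in C3 and C4. Its group means were 84.3 ± 25.1% and 84.6 ± 17.9% (exact permutation p = 0.849, adjusted 0.921).

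MiR-365-3p stood at about the same multiple of miR-193b-3p in each control, 218%, 196%, 186% and 196%. In L1, L2, L3, L5 and L6 the ratio was 210%, 168%, 189%, 141% and 193.5%. L2 and L5 were below all controls. The means were 199 ± 13.7% and 180 ± 26.6%, a log2 difference of -0.15 (exact permutation p = 0.254, adjusted 0.683), which was -0.069 without L5 and -0.12 without L1 and L5.

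The passenger to guide ratio of Mir193a was 2.27%, 2.85%, 1.55% and 2.17% in C1 to C4 and 5.92%, 2.64%, 2.56%, 3.43% and 3.86% in L1, L2, L3, L5 and L6. L1, L5 and L6 exceeded all controls and L2 and L3 lay within their range. The means were 2.21 ± 0.532% and 3.68 ± 1.37%, a log2 difference of 0.69 (exact permutation p = 0.0476, adjusted p = 0.286 over 6 ratios). In the same exact test the difference without L1 was 0.50 (p = 0.0857), without L1 and L5 it was 0.45 (p = 0.143), and it kept an unadjusted p under 0.05 only without C2 (0.82, p = 0.0357). Here too fewer splits remain with mice left out, so p moves in coarser steps. The corresponding ratio for miR-128, miR-128-1-5p to miR-128-3p, was 1.55 ± 0.539% in the controls and 1.54 ± 0.296% in the LLC mice (exact permutation p = 0.921).

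**Figure D3:**
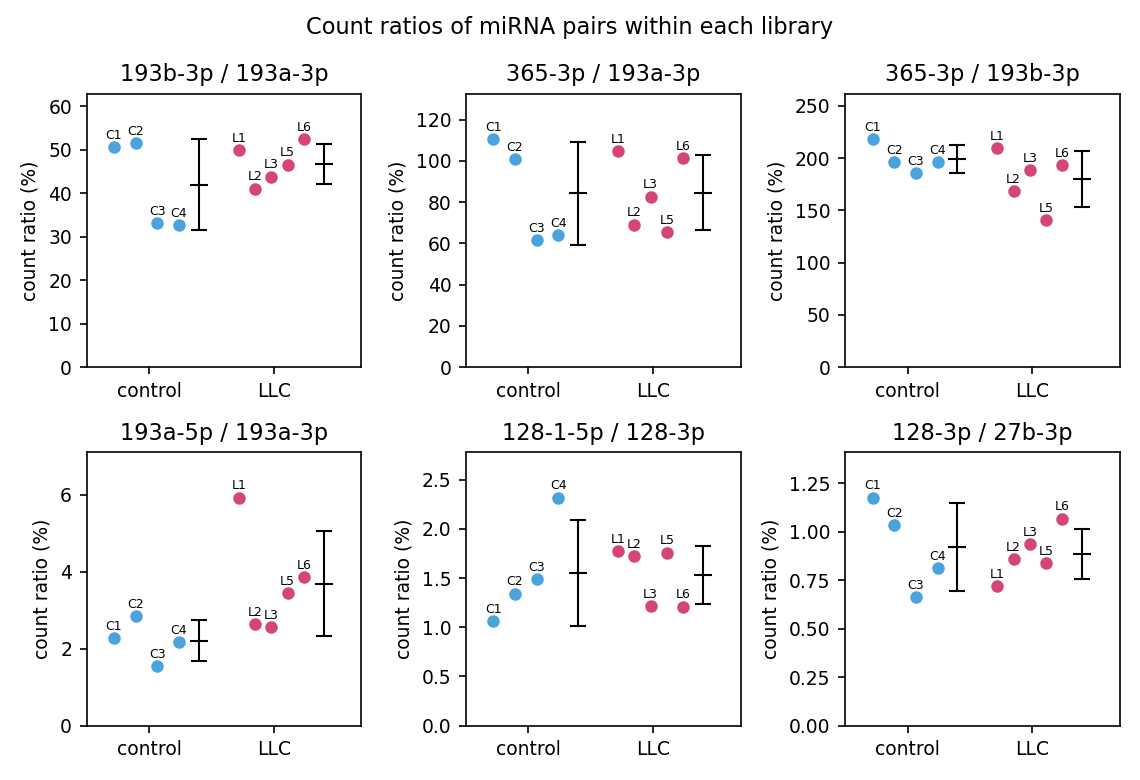
Ratio of the counts of 2 miRNAs in the same library, in percent (y axis), for each mouse, with the mean ± SD of each group beside the points. In the panel for miR-193a-5p over miR-193a-3p, L1 (5.92%), L5 (3.43%) and L6 (3.86%) lie above the highest control (2.85%), and in the first 2 panels C1 and C2 lie apart from C3 and C4.

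The 5p arms, which unlike the 3p arms differ between the paired loci, were used to describe the loci apart. Over the 9 libraries, miR-128-1-5p held 231 of the 236 counts of both miR-128 passenger arms (97.9%, 95% Wilson interval 95.1% to 99.1%), and it was the higher in 9 of 9 mice. MiR-365-1-5p held 27 of 66 counts (40.9%, 29.9% to 53.0%), and miR-365-2-5p was the higher in 7 of 9 mice. The miR-365 5p arms differ only beyond the bases in which no mismatch was allowed, so their division of reads cannot be told from the counts either. These intervals cover counting error only. A share of passenger arms need not equal the share of the guide arm that each locus gives, which the counts do not show.

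MiR-193a-3p, miR-193b-3p and miR-365-3p were compared over the 9 mice, since each miR-193 hairpin lies beside a miR-365 hairpin. MiR-193b-3p and miR-365-3p had Pearson's r = 0.65 (exact permutation p = 0.0665, adjusted over 4 pairs 0.133) and Spearman's rho = 0.60 (p = 0.0968). Without L1 and L5, the mice farthest from the median of miR-193b-3p, r was 0.67 (exact p = 0.128), and on deviations from the group means it was 0.72 (p = 0.0282). It was 0.21 without L1 alone and 0.87 without L5 alone. MiR-193a-3p and miR-365-3p had r = 0.38 (exact permutation p = 0.309) and rho = 0.32 (p = 0.410), and r changed sign to -0.26 without C4 and L1.

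The pair with a shared seed, miR-193a-3p and miR-193b-3p, had r = 0.70 (exact permutation p = 0.0335, adjusted 0.133) but rho = 0.42 (p = 0.270). Without C4 and L1 its r was 0.49 (exact p = 0.259), and without L1 alone 0.32, so the relation rested on L1, the lowest mouse for both miRNAs. The arms of the Mir193a hairpin, miR-193a-3p and miR-193a-5p, had r = -0.13 (exact permutation p = 0.734) and rho = -0.05 (p = 0.912), and r was 0.19 (p = 0.666) without C4 and L1. With TMM, none of the 4 pairs passed 0.05 after adjustment. On deviations from the group means, miR-193a-3p and miR-193b-3p had r = 0.73 (exact permutation p = 0.0197, not adjusted). With library totals, miR-193b-3p and miR-365-3p had r = 0.85 (exact permutation p = 0.00101, not adjusted), so that result depended on the scaling.

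**Figure D4:**
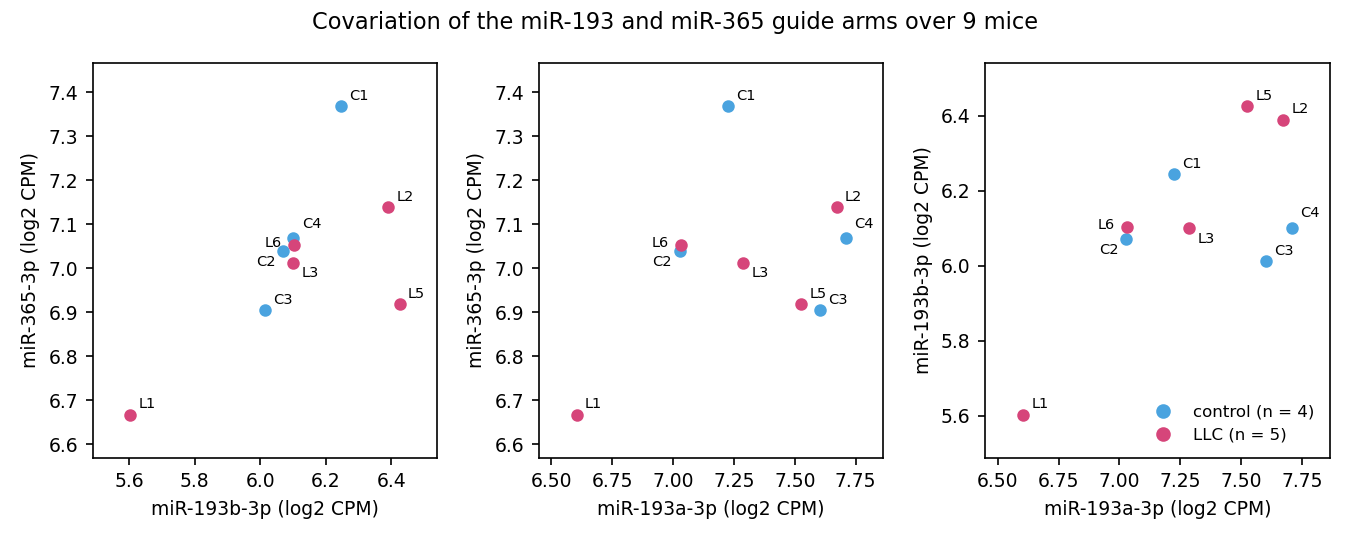
Log2 CPM (prior count 2) of miR-365-3p against miR-193b-3p, of miR-365-3p against miR-193a-3p, and of miR-193b-3p against miR-193a-3p, with 1 labelled point per mouse. L1 is the lowest point on both axes of each panel, and r is 0.65, 0.38 and 0.70 from left to right.

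By likeness over all 9 mice (root mean square difference of log2 CPM centred on its mean, 299 miRNAs compared), miR-365-3p was nearest to miR-133b-3p, a muscle fibre miRNA (0.0769, against a median of 0.294), and then to miR-125b-1-3p (0.106). MiR-193b-3p was nearest to miR-574-3p (0.126) and miR-615-3p (0.140), and miR-193a-3p to miR-615-3p (0.175) and miR-376a-5p (0.187). MiR-128-3p was nearest to miR-22-3p (0.119), the abundant muscle miRNA, and miR-29a-3p (0.120). MiR-193a-5p had no neighbour nearer than let-7d-5p (0.196) and miR-29c-5p (0.197). By this measure any miRNAs that vary little between mice are near each other, and the nearest of 299 is always small. Whether near miRNAs come from the same cells was not tested.

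MiR-27a-3p and miR-27b-3p, known as inhibitors of adipocyte differentiation, carry the miR-128-3p seed shifted by 1 base. Bases 1 to 8 of miR-128-3p are bases 2 to 9 of both, printed in capitals.
miR-128-3p: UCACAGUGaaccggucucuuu
miR-27a-3p: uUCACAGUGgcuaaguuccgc
miR-27b-3p: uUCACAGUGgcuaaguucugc

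MiR-27b-3p was far more abundant than miR-128-3p, at 30935 ± 1209 CPM in the controls and 28191 ± 2723 CPM in the LLC mice, with a log2 fold change of -0.13 (adjusted p = 0.565, edgeR). MiR-27a-3p was at 1186, 1279, 1191 and 1282 CPM in C1 to C4 and at 1061, 1252, 1058, 1008 and 976 CPM in L1, L2, L3, L5 and L6. For miR-27a-3p all LLC mice but L2, and for miR-27b-3p all but L1, were below all controls. The share of all miRNAs with such a pattern was not counted. The log2 fold change of miR-27a-3p was -0.20 (SE 0.105, adjusted p = 0.296, edgeR). In mean log2 CPM, miR-27a-3p differed by -0.21 (exact permutation p = 0.0317, not adjusted) and miR-27b-3p by -0.14 (exact permutation p = 0.103). The ratio of miR-128-3p to miR-27b-3p was 0.921 ± 0.228% in the controls and 0.884 ± 0.129% in the LLC mice (exact permutation p = 0.873).

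Other miRNAs with known roles in adipocyte fate were measured alongside. Of 20 in that list, 16 were tested, 5 of them higher and 11 lower, and none passed p and fold change without adjustment, against 7.24% of all miRNAs. Their median log2 fold change was -0.13, with a range of -0.39 (miR-106b-5p) to 0.38 (miR-182-5p). The most abundant, miR-143-3p, which promotes adipocyte differentiation, was at 53250 ± 7087 and 67463 ± 16307 CPM (log2 fold change 0.34, adjusted p = 0.320, edgeR). MiR-133a-3p, a myogenic miRNA that restrains the brown adipocyte programme, was at 20321 ± 3384 and 18718 ± 1381 CPM.

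Of 18 miRNAs tied to insulin signalling and glucose metabolism, 14 were tested, 5 higher and 9 lower (46.4% and 53.6% of all miRNAs), with a median log2 fold change of -0.06. Of these, 2 passed p and fold change without adjustment, both higher in LLC mice, against 3.62% of all miRNAs called higher. They were miR-29b-3p, which targets collagens and insulin signalling genes (log2 fold change 0.73, adjusted p = 0.0812), and miR-223-3p, a myeloid miRNA (0.70, adjusted p = 0.0936, both edgeR). MiR-378a-3p, encoded within Ppargc1b, was at 25426 ± 1919 and 24282 ± 3785 CPM. MiR-133a-3p, miR-143-3p and miR-34a-5p stand in both lists, so these counts overlap.

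The tissue label was set against cell type markers. In bulk muscle, fewer cells of a type and less RNA per cell cannot be told apart. Of 6 muscle fibre markers 5 were tested, all lower and none past p and fold change, against 53.6% lower and 7.24% called among all miRNAs, with a median log2 fold change of -0.26. Their summed level was 24970 ± 4094 CPM in the controls and 22930 ± 1629 CPM in the LLC mice, mostly miR-133a-3p. MiR-1a-3p was at only 20.9 ± 2.35 and 17.4 ± 6.44 CPM (62 to 171 counts per library), and miR-206-3p had 5 counts in the 9 libraries. Whether miR-1a-3p was lost in library making, mapping or counting was not tested, so its low level need not be that of the muscle. Among 8 neuron markers, listed because miR-128 is abundant in brain, 3 were tested, all 3 lower with none past p and fold change, beside the same shares of all miRNAs. They summed to 59.1 ± 6.68 and 53.9 ± 6.18 CPM, below the level of miR-128-3p alone, with miR-138-5p the most abundant and 13 counts in all for miR-124-3p, the defining neuronal miRNA.

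Of the 6 leukocyte markers 5 were higher and 1 lower, against 46.4% higher among all miRNAs. MiR-223-3p and miR-146a-5p passed p and fold change without adjustment (log2 fold change 0.70 and 0.74, against 3.62% of all miRNAs called higher), with adjusted p of 0.0936 and 0.273 by edgeR. MiR-150-5p, the most abundant of the 6, was the lower one, at 492 ± 43.8 and 377 ± 23.1 CPM (log2 fold change -0.38, adjusted p = 0.100, edgeR). All LLC mice were below all controls for it, which held for 4.28% of all miRNAs. The sum of the 6 markers, led by miR-150-5p, was 770 ± 49.8 CPM in the controls and 681 ± 60.4 CPM in the LLC mice. All 3 erythroid markers were lower and passed without adjustment, with log2 fold changes of -0.73 to -0.83, against 3.62% of all miRNAs called lower. Their adjusted p by edgeR was 0.100 to 0.214, so none passed with it. Their sum, led by miR-451a, was 259 ± 49.3 and 152 ± 53.2 CPM. It was lowest in L1 (92.4 CPM) and L5 (110 CPM), the mice that stood apart. L1 was also the lowest mouse for miR-193a-3p, miR-193b-3p and miR-365-3p, and the part of blood RNA in those values was not tested. The 2 endothelial markers were lower (median -0.20), of 3 smooth muscle markers 2 were higher and 1 lower (median 0.11), and of 3 fibroblast markers 1 was higher and 2 lower (median -0.26). Among all miRNAs 46.4% were higher and 53.6% lower. None of these markers passed p and fold change without adjustment, against 7.24% of all miRNAs, a share at which lists this short would mostly hold none. The 5 epithelial markers were under the count minimum and summed to 4.58 ± 1.17 and 4.58 ± 1.49 CPM.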

How the data were processed

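The authors made small RNA libraries with the TruSeq kit from total RNA, sequenced them single-end, mapped reads to miRBase 21 with Bowtie (no mismatch in the first 8 bases, all best alignments kept) and deposited 1 table of whole-number read counts per library, without normalization or filter. The submitters' processing notes also name FastQC, HTSeq and DESeq2. A read that fits 2 mature miRNAs can be counted for both.

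The count tables were fitted by the quasi-likelihood F test of edgeR 4.0.16 (R 4.3.3) with TMM factors, for 304 of 1915 miRNAs, those for which any of the 9 libraries had over 32 counts. To be called, a miRNA had to change by 1.5-fold or more with p no higher than 0.05 after Benjamini-Hochberg adjustment over all 304, and calls on the unadjusted p are given beside it. Exact two-sided permutation was used for single miRNAs and correlations (log2 CPM, prior count of 2) and for ratios of counts (pseudocount 0.5). SE and intervals come from the F statistic and its degrees of freedom. Plots were made with matplotlib 3.10.9 under Python 3.11. Totals of 4992339 to 7833161 counts per library set the precision, and Wilson intervals are 95% intervals that cover counting error only. Scripts were tested on simulated data.

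The miRNAs named were the 7 arms, the other arms of their hairpins, miRNAs sharing a seed, miR-27a-3p and miR-27b-3p, the 2 nearest tested miRNAs of each arm tested, and for each metabolic list the 2 most abundant members and any past the unadjusted rule. Other list members and markers (the ends of a range, shared members, scarce or leading markers) were named after their values were seen. The 7 arms, the lists and the markers were chosen with earlier results of these data known. Ratios and correlations with miR-128-2-5p (0 to 2 counts), and correlations of the miR-128 arms, were planned and not computed, since a 5p arm failed the count minimum. Alternatives tried were other scalings, DESeq2 1.42.0, limma 3.58.1 with voom, other filters, a replicate block, other pseudocounts and leaving out mice.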

Additional observations from a re-analysis of the deposited data

How the results depend on the processing

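No alternative brought any of the 5 arms past the adjusted threshold, and miR-193a-3p, miR-365-3p and miR-128-3p (lower) and miR-193a-5p (higher) kept their direction in every fit tried, but the lower values came close to 0. Without L1 and L5 they were -0.030, -0.0034 and -0.030, and when 1 mouse was left out they were -0.27 to -0.017, -0.20 to -0.038 and -0.30 to -0.056. The adjusted p of miR-193a-5p ran from 0.149 to 0.739. Over all miRNAs, the count of adjusted calls (0) was 8 with DESeq2, 22 of 932 without a filter, 1 without L1 and L5 together, and 0 to 8 when 1 mouse was left out (8 without L3). The count of unadjusted calls (22) was 51 without a filter, 5 without L1 and L5, and 14 to 36 when 1 mouse was left out. The number of the 5 arms among them was 0 to 1, the 1 being miR-193a-5p without C4 or L3. Same-numbered mice are different animals, and their deviations had correlations of -0.23, -0.09 and -0.25 for numbers 1 to 3. Mice with different numbers are not given beside them, so these values cannot decide whether the replicate number marks a shared batch. With the replicate number as a block, unadjusted calls were 9 and the log2 fold change of miR-193b-3p was -0.075.

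Without an adjusted call to lose, the changes were in values near 0 or near an unadjusted 0.05, and their cause was not tested. For miR-193b-3p the log2 fold change was -0.11 with library totals and -0.034 to 0.15 when 1 mouse was left out, and its difference in mean log2 CPM was -0.14 and -0.059 to 0.15. That of miR-193a-5p was 0.37 without L1 and L5 (exact p = 0.114) and 0.41 to 0.60 when 1 mouse was left out, and that of miR-128-1-5p was -0.26 to 0.017. Log2 differences in ratio without L1 and L5 were 0.45 for miR-193a-5p to miR-193a-3p, -0.13 for miR-128-1-5p to miR-128-3p and 0.082 for miR-128-3p to miR-27b-3p. When 1 mouse was left out they were 0.50 to 0.82, -0.14 to 0.23 and -0.18 to 0.093, and -0.10 to 0.18 for miR-365-3p to miR-193a-3p, 0.075 to 0.29 for miR-193b-3p to miR-193a-3p and -0.21 to -0.069 for miR-365-3p to miR-193b-3p. The r of miR-193b-3p with miR-365-3p was 0.72 on deviations from group means, 0.85 with library totals (exact p = 0.00101) and 0.21 to 0.87 when 1 mouse was left out. For miR-193a-3p with miR-365-3p it was -0.15 without L1 and L5 and -0.22 to 0.60. For miR-193a-3p with miR-193b-3p it was 0.74 with library totals, 0.25 without L1 and L5, and 0.32 to 0.80. For miR-193a-3p with miR-193a-5p it was 0.081 on deviations, 0.11 without L1 and L5, and -0.31 to 0.21. The 5p arms had at most 44 counts per library.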
